A study of Mus musculus with 10 samples.

Results

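Gene expression in naive conventional CD4+ T (Tconv) cells of Il2ramut/mut and wild type (WT) mice was compared over 65956 transcript probe sets, out of 72688 probe sets in the table, on 2 Il2ramut/mut and 2 WT arrays of the 10 in the series. The other 6 arrays held Foxp3+ regulatory T (Treg) cells, 3 of each genotype, and served as a shared estimate of the spread and as a reference cell type. All mice were C57BL/6 females aged 6 to 8 weeks, kept free of specific pathogens without treatment, and all carried the Foxp3-RFP reporter, in which a red fluorescent protein marks cells with Foxp3. Il2ramut/mut mice had a point mutation in both copies of Il2ra in every cell of the body, so a difference in Tconv cells may arise in these cells or in others around them, and the arrays cannot tell these apart. RFP-negative Tconv cells of the lymph nodes were enriched with beads and sorted, 50000 cells to an array. According to the study's methods the sort kept naive cells, high for CD62L, low for CD44 and negative for CD25. The labels do not state this gate. Tconv cells were thus chosen for lacking the protein of Il2ra at the surface. The study reports that the mutation itself impairs CD25 at the cell surface, in Treg cells and in stimulated T cells. The CD25 gate may therefore have left out different cells in WT and Il2ramut/mut mice, which was not tested. The design text speaks of 2 or 3 mice a genotype and the study draws each array as a mouse, so arrays were taken as separate animals.

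Il2ra encodes CD25, the alpha chain that gives the interleukin-2 (IL-2) receptor its high affinity. Treg cells carry CD25 at all times and depend on IL-2, which signals through JAK kinases to STAT5, whereas resting Tconv cells carry almost none until they are stimulated through the T cell receptor. Naive Tconv cells instead live on interleukin-7 and on weak contacts with self-peptide, and their basal state is tuned by low levels of type I interferon, which acts through STAT2 and IRF9.

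The 4 Tconv arrays were alike in median, from 5.02 to 5.13 on the log2 signal scale. Between 44.8% and 51.3% of their probe sets lay above background, with the highest share on WT array 2. Background was set on each array as the 95th percentile of 23 antigenomic controls. Correlations among the 4 arrays, across probe sets, did not sort by genotype. The first principal component, with 40.4% of the variance, placed the WT arrays at -31.2 and -9.2 and the Il2ramut/mut arrays at 36.3 and 4.2. The second, with 34.5%, set WT array 2 apart at -37.2. On it WT array 1 lay at 15.4 and the Il2ramut/mut arrays at 1.5 and 20.3. Genes that define CD4+ T cells were bright on all 4 arrays, with Cd4 at 13.4 to 13.6, Cd3e at 15.66 to 16.05 and Ccr7, the lymph node homing receptor of naive cells, at 13.4 to 13.6. Klf2, a further marker of naive cells, lay at 7.90 to 8.40. Among Treg markers, Il2ra lay between 6.04 and 6.48 on the 4 Tconv arrays and between 14.92 and 15.31 on the Treg arrays. Ikzf2 (5.34 to 5.77) and Ctla4 (6.64 to 7.34), like Il2ra, lay above background on all 4 Tconv arrays. Of the markers of other cells, Cd8a, Cd79a, Ms4a1, Csf1r and Ncr1 lay below background on all 4 arrays, and Cd8b1 lay at 9.83 to 10.81, highest on WT array 1. The myeloid genes Lyz2 (5.54 to 6.14) and Itgam (5.60 to 5.68), the collagen gene Col1a1 (5.37 to 5.48) and Pecam1, an adhesion molecule of endothelium and some leukocytes (12.42 to 12.95), lay above background on all 4. Fewer cells of a type and less RNA per cell cannot be told apart in such bulk samples.

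Few probe sets separated the genotypes past the test. With limma and Benjamini-Hochberg adjustment over all probe sets, 2 of 65956 probe sets (0.00303%) differed in Tconv cells, both were higher in Il2ramut/mut cells, and neither has a gene name. The first, TC0900001546.mm.1, had signals of 3.92 and 3.55 on the WT arrays, below background, and of 6.07 and 6.86 on the Il2ramut/mut arrays (adjusted p = 0.0344). The 6 Treg arrays of both genotypes lay between 3.62 and 3.95 for it, so the Il2ramut/mut Tconv arrays were the only ones above background. The second, TC1000002261.mm.1, had 10.995 and 10.73 on the WT arrays and 12.93 on both Il2ramut/mut arrays, a 4.20-fold difference (adjusted p = 0.0344). Its levels on the WT Treg arrays ran from 12.07 to 12.26 and on the Il2ramut/mut Treg arrays from 12.32 to 12.96, so that the WT Tconv arrays were the low ones. Each was called under 5 of 20 other settings of the fit, 1 of which did not test unnamed probe sets, and neither was called when WT array 1 or WT array 2 of the Tconv cells was left out.

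No probe set with a gene name reached an adjusted p under 0.05 in Tconv cells, and each Tconv value given below for a named gene with all 4 arrays is a measured difference that did not pass that test. At an unadjusted limma p under 0.05, 2443 probe sets were higher and 2231 lower in Il2ramut/mut cells, 3.7% and 3.38% of those tested. Of the 30738 genes represented by 1 probe set each, 24 differed by at least 1 on the log2 scale upward and 22 downward, and the median over all genes was -0.01. The widest were those of Bpifa2, a secreted salivary protein, at -4.21 ± 1.34, and of a probe set of Erdr1 at 3.98 ± 0.99, both with large errors (adjusted p = 0.575 and 0.487). The study's own criterion asks for a 1.5-fold difference together with p no larger than 0.01 in the methods' t-test, before adjustment. It was met by 69 probe sets (0.105%), 48 higher (0.0728%) and 21 lower (0.0318%). Of these, 45 had no gene name and 18 had a gene symbol other than a model name. Those 18 included Fos, Coro2a, Ddx43 and the chaperone gene Dnajb9 on the higher side, Ifi27l2a, Rtp4, Ifit1bl1 and the pattern receptor gene Tlr1 on the lower side, and several small RNA and T cell receptor segment genes.

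**Figure D1:**
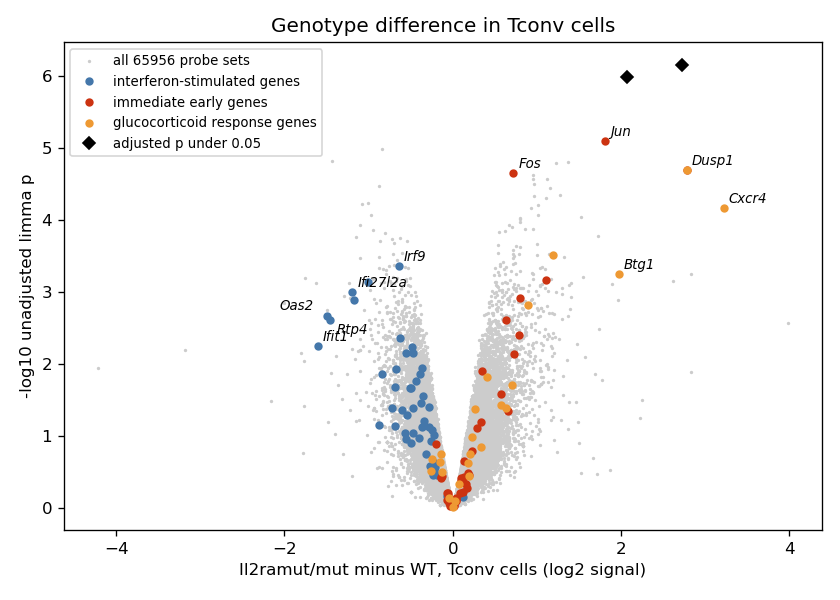
Difference between Il2ramut/mut and WT Tconv cells (log2 signal, x axis) against the -log10 of the unadjusted limma p (y axis) for all 65956 probe sets, with members of 3 gene lists in colour and the 2 called probe sets as black diamonds. Interferon-stimulated genes lie left of 0 except Ly6c1, while Jun, Dusp1, Fos and Cxcr4 lie at the upper right.

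Most interferon-stimulated genes had lower values in Il2ramut/mut Tconv cells. Of 53 listed, 48 were measured, all above background, and 47 of the 48 had a lower mean in Il2ramut/mut than in WT Tconv cells. In 43 of 48 both Il2ramut/mut arrays lay below both WT arrays and in 0 both lay above, against 23.6% and 11.7% of all 16422 genes above background. The median difference of the list was -0.48 on the log2 scale, beside -0.04 over those 16422 genes. At an unadjusted p under 0.05, 25 of 48 were lower and 0 higher, where the shares over the same genes were 5.36% and 2.29%. The single positive member was Ly6c1, a surface antigen of memory and some naive T cells, at 0.12, with overlapping arrays.

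The sensors and effectors of the antiviral state held the widest gaps. Ifit1, whose protein binds foreign RNA caps, had signals of 10.62 and 10.50 on the WT arrays against 8.81 and 9.11 on the Il2ramut/mut arrays, a 3.03-fold lower mean with a difference of -1.60 ± 0.45 (SE; adjusted p = 0.525). Oas2, an oligoadenylate synthetase that activates RNase L, had 10.72 and 10.88 against 9.09 and 9.51 (-1.50 ± 0.36, adjusted p = 0.474). Rtp4, an interferon-induced inhibitor of RNA viruses, had 10.19 and 9.93 against 8.59 and 8.61 (-1.46 ± 0.36, adjusted p = 0.485). For each of these genes the groups did not overlap, and the gap between the genotypes was wider than that between arrays of either. Ifit3, a partner of Ifit1, had 8.21 and 8.66 against 7.20 and 7.65 (-1.01 ± 0.21, adjusted p = 0.396), and its near copy Ifit3b differed by -1.17, although transcripts of such copies may bind each other's probes. Further down, Usp18, which shuts off the interferon receptor, differed by -0.88, Isg15, a ubiquitin-like modifier, by -0.39 and Mx1, a GTPase that blocks influenza virus, by -0.36.

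The factors that carry the interferon signal were lower as well. Irf9, the DNA-binding subunit of the ISGF3 complex, had 10.67 and 10.57 on the WT arrays and 9.90 and 10.05 on the Il2ramut/mut arrays (-0.64 ± 0.12, adjusted p = 0.387), the lowest p in the list. Stat2, its partner, had 10.16 and 9.79 against 9.37 and 9.33 (-0.63 ± 0.17, adjusted p = 0.505). Irf7, the factor that amplifies type I interferon production, differed by -0.56, and WT array 1 at 9.25 stood apart from WT array 2 at 8.55, close to the Il2ramut/mut arrays at 8.26 and 8.42.

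**Figure D2:**
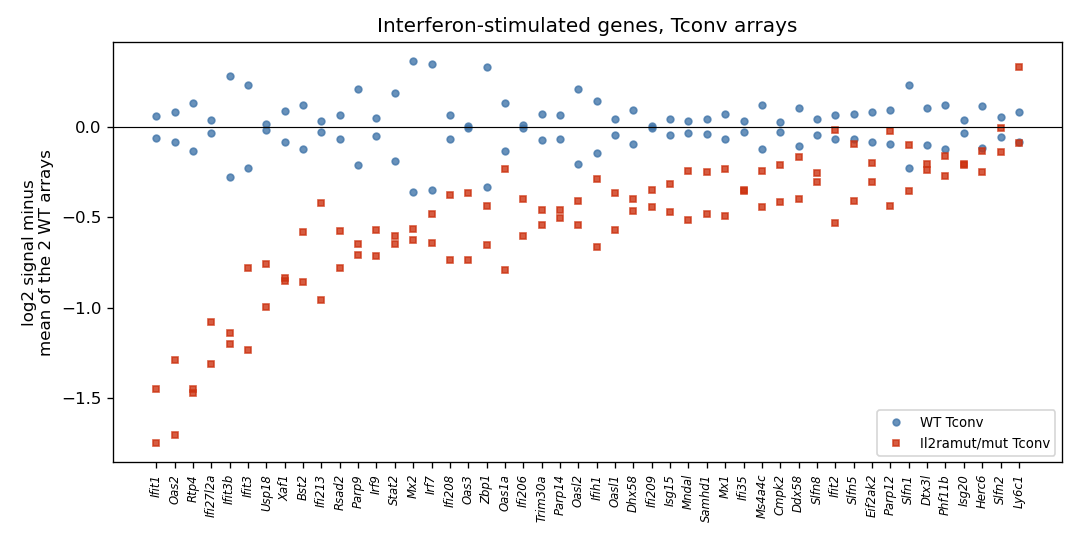
Log2 signal of each of 48 interferon-stimulated genes on the 4 Tconv arrays, minus the mean of the 2 WT arrays, with WT arrays as blue circles and Il2ramut/mut arrays as red squares and genes ordered by their difference. In 43 genes both squares lie below both circles.

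Averaged over the 48 genes and set against the mean of the 4 arrays, the WT arrays lay at 0.32 and 0.22 and the Il2ramut/mut arrays at -0.34 and -0.20. Genes tied more to interferon gamma, which include the guanylate-binding proteins, the immunity-related GTPases and the antigen processing machinery, had smaller values on the same side. Of 35 listed, 25 were measured, all 25 had a negative difference, 19 had both Il2ramut/mut arrays below both WT arrays and 0 above, and 6 were lower at an unadjusted p under 0.05. The shares over all 30738 genes were 18%, 13.7% and 3.44%, and the median was -0.23 beside -0.01. Of the 25 members, 23 lay above background. Over the 16422 genes above background the shares were 23.6%, 11.7% and 5.36%, and the median was -0.04. Gbp3, a guanylate-binding protein, had 8.00 and 8.01 against 7.10 and 7.30 (-0.80 ± 0.13, adjusted p = 0.265). Iigp1, a GTPase that attacks pathogen vacuoles, had 9.58 and 9.05 against 8.43 and 8.08 (-1.06 ± 0.25). Irgm1, which regulates those GTPases, differed by -0.68, Tap1, the peptide transporter of class I presentation, by -0.48, and B2m, the class I light chain, by -0.25.

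In Treg cells the same list had a median of -0.14, with 6 of 48 members lower and 0 higher at an unadjusted p under 0.05 (8.32% and 5.02% of the 16422 genes). For Ifit1 the Treg difference was -0.52, for Oas2 -0.62 and for Rtp4 -0.21. The test of the difference between the effects in Tconv and Treg cells called 0 of the 48 genes, and at an unadjusted p under 0.05 it gave 9 genes more negative in Tconv cells and 1 less negative (3.78% and 3.25% of the 16422 genes). For Ifit1 and Ifit3 the Il2ramut/mut Tconv arrays came close to the WT Treg arrays, whereas the WT Tconv arrays lay above all others.

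**Figure D3:**
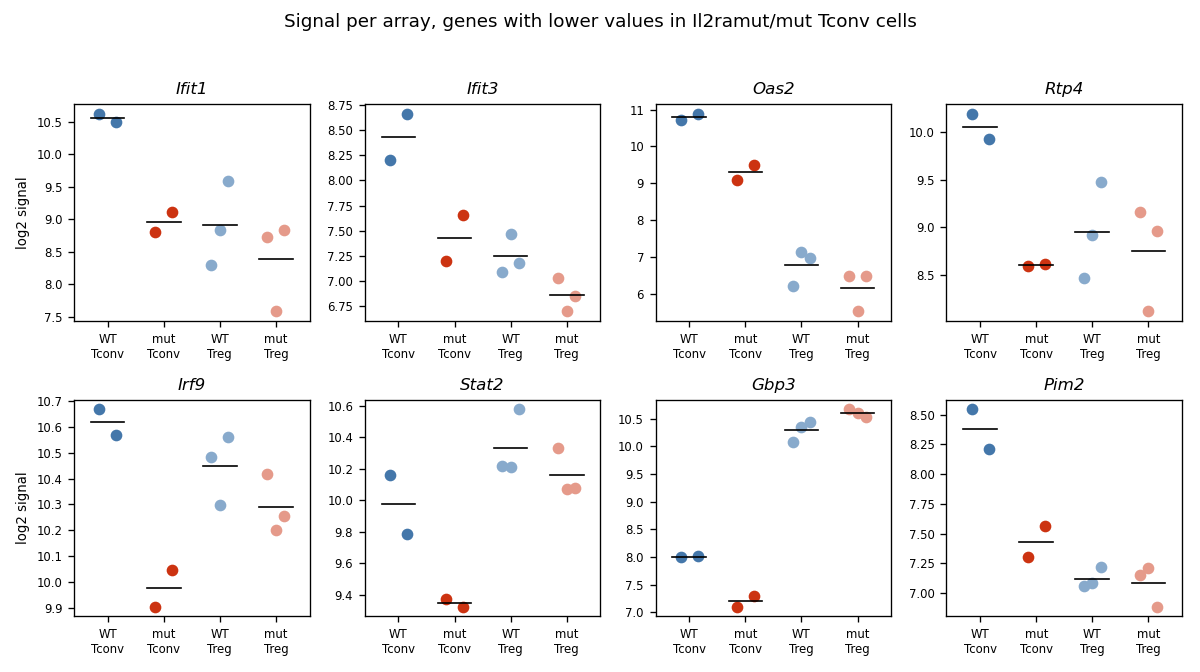
Log2 signal (y axis, one scale a panel) of 8 genes with lower values in Il2ramut/mut (mut) Tconv cells, with each array as a point, the group mean as a line and groups on the x axis. In the panels of Ifit1, Ifit3, Oas2, Rtp4 and Pim2 the WT Tconv arrays are the highest of the 10, and in Irf9 and Stat2 the Il2ramut/mut Tconv arrays are the lowest.

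Promoters of 3 of these genes are printed because they hold the element through which ISGF3 and related factors act, the interferon-stimulated response element (ISRE), searched on both strands as a pair of GAAA repeats with 2 bases between them. The stretches of 300 bases run 5' to 3' along the gene, from upstream of the start to just past it, are those of RefSeq on build GRCm38.p6, and have the ISRE matches in capitals, here all on the opposite strand.
Ifit1 (chr19:34640639-34640938, plus strand): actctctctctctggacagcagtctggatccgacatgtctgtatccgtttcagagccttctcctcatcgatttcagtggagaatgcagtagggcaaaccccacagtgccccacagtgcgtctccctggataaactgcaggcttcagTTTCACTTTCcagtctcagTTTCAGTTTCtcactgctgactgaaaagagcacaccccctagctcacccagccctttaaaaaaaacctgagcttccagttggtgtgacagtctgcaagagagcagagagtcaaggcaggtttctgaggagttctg
Ifit3 (chr19:34583279-34583578, plus strand): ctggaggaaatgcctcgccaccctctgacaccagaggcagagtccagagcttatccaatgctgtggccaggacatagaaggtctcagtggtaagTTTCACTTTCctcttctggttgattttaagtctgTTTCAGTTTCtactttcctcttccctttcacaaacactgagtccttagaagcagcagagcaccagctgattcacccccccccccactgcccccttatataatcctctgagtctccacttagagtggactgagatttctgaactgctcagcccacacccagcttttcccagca
Gbp3 (chr3:142559794-142560093, plus strand): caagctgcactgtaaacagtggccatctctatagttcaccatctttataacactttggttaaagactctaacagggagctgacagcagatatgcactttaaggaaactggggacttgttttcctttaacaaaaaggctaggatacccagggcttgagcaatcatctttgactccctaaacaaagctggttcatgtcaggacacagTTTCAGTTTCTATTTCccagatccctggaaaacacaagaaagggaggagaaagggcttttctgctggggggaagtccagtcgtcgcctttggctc

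Each of the 3 promoters held 2 matches, which overlap in Gbp3, and a second Gbp3 promoter in the table held none. RefSeq promoters were found for 41 of the listed interferon-stimulated genes, and 24 of their 50 promoters (48%) held a match, against 3.44% of all 32851 promoters in the table. Among the 38 measured list members with a promoter, the 20 with a match had a median difference of -0.51 and the 18 without one -0.33. Across the 9386 genes above background with a promoter, the medians were -0.04 with a match and -0.02 without. A match of letters is a description and does not show a bound site.

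The higher side was led by immediate early genes, which respond to stimuli without new protein synthesis, and by genes that glucocorticoids induce in lymphocytes. Dusp1, a phosphatase that switches off MAP kinases and belongs to both groups, had 9.03 and 7.61 on the WT arrays against 11.15 and 11.06 on the Il2ramut/mut arrays, a 6.90-fold higher mean (2.79 ± 0.36, adjusted p = 0.149). Jun, a subunit of the AP-1 factor, had 6.60 and 5.84 against 7.98 and 8.09 (1.81 ± 0.21, adjusted p = 0.149). In both genes WT array 2 was the lowest, with gaps of 1.42 and 0.76 between the WT arrays, while the gaps between the Il2ramut/mut arrays were 0.08 and 0.10. Without WT array 1 the differences were 3.50 for Dusp1 and 2.20 for Jun, and without WT array 2 they were 2.08 and 1.43. Each of these fits has 1 WT Tconv array and so no spread within that group. With the 4 Tconv arrays alone the limma adjusted p was 0.629 for Dusp1 and 0.604 for Jun. Fos, the partner of Jun, was below background on both WT arrays at 4.96 and 5.01 and above it on the Il2ramut/mut arrays at 5.77 and 5.65, which bounds the fold at 1.495 or more (adjusted p = 0.149). Ppp1r15a, which restores translation after stress, had 5.92 and 5.59 against 6.62 and 7.11 (1.11 ± 0.23).

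Of 42 measured immediate early genes, 14 had both Il2ramut/mut arrays above both WT arrays and 3 both below, against 13.7% and 18% of all 30738 genes, and 11 were higher and 0 lower at an unadjusted p under 0.05 (2.28% and 3.44%). The list's median was 0.11. Members with differences above 0.5 also included the phosphatases Dusp2 at 0.80 and Dusp6 at 0.66, the regulators of G protein signaling Rgs2 at 0.79 and Rgs1 at 0.64, the antiproliferative gene Btg2 at 0.73 and the early activation antigen Cd69 at 0.57. On the other side, Klf6, a zinc finger factor, differed by -0.19 and Egr3, a factor induced by the T cell receptor, by -0.13, each with both Il2ramut/mut arrays below the WT arrays.

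**Figure D4:**
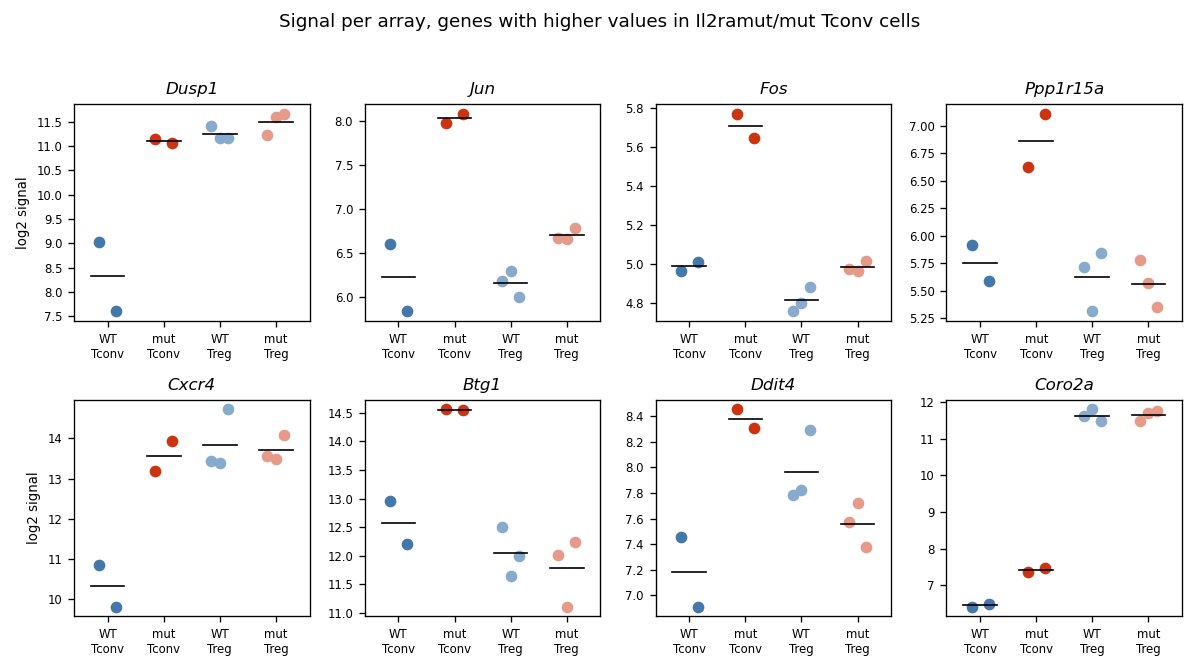
Log2 signal (y axis, one scale a panel) of 8 genes with higher values in Il2ramut/mut (mut) Tconv cells, with each array as a point, the group mean as a line and groups on the x axis. The Il2ramut/mut Tconv arrays lie above both WT Tconv arrays in each panel, and for Dusp1 and Cxcr4 they lie near the Treg arrays.

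Among 24 glucocorticoid response genes, 14 had both Il2ramut/mut arrays above the WT arrays and 2 below, 10 were higher and 0 lower at an unadjusted p under 0.05, and the median was 0.22, beside shares over all 30738 genes of 13.7%, 18%, 2.28% and 3.44% and a median of -0.01. Cxcr4, the receptor for the chemokine CXCL12 that holds cells in bone marrow niches, had the widest difference of the listed genes: 10.85 and 9.82 on the WT arrays against 13.19 and 13.92 on the Il2ramut/mut arrays (3.22 ± 0.48, 9.345-fold, adjusted p = 0.195). WT Treg arrays lay at 13.85 on average, so for Cxcr4 the WT Tconv arrays were the low ones among the 10. Btg1, an antiproliferative gene of quiescent lymphocytes, had 12.96 and 12.20 against 14.56 and 14.54 (1.97 ± 0.39, adjusted p = 0.396), and here the Il2ramut/mut Tconv arrays were above all others. Ddit4, an inhibitor of mTORC1, had 7.46 and 6.91 against 8.45 and 8.31 (1.19 ± 0.22, adjusted p = 0.344). Zfp36l2, an RNA-binding protein that destabilizes messages, differed by 0.89, Tsc22d3, which encodes the glucocorticoid-induced leucine zipper, by 0.58, Txnip, a brake on glucose uptake, by 0.41, and Fkbp5, a chaperone of the glucocorticoid receptor, by 0.20.

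These lists share members, Dusp1 among them, and their counts are not separate evidence. WT array 2 was the lowest array over both lists: relative to the mean of the 4 arrays the glucocorticoid response genes above background averaged -0.16 and -0.52 on the WT arrays and 0.28 and 0.40 on the Il2ramut/mut arrays, and the immediate early genes -0.06 and -0.27 against 0.13 and 0.20. Heat shock genes had a median of 0.03 and genes of the unfolded protein response one of 0.02, with Dnajb9, a chaperone of the endoplasmic reticulum, at 0.72 and Hspa5, its master chaperone BiP, at 0.36. In Treg cells Jun differed by 0.55, Dusp1 by 0.25, Cxcr4 by -0.13 and Btg1 by -0.26. Of the 24 glucocorticoid response genes 2 were called in Treg cells, and of the 42 immediate early genes 0, against 0.373% of all probe sets. The 2 were Sgk1, a serum- and glucocorticoid-regulated kinase, at 0.62 (limma adjusted p = 0.039), and Tgfbr3, a coreceptor of TGF-beta, at -1.30 (adjusted p = 0.0134). Their Tconv differences were -0.16 and 0.19. No member of these 2 lists was called for a difference between the effects in Tconv and Treg cells.

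The promoters of Dusp1 and Fos are printed because the CRE core TGACG, to which CREB binds, lies in both, in capitals, on build GRCm38.p6 of RefSeq.
Dusp1 (chr17:26508423-26508722, minus strand): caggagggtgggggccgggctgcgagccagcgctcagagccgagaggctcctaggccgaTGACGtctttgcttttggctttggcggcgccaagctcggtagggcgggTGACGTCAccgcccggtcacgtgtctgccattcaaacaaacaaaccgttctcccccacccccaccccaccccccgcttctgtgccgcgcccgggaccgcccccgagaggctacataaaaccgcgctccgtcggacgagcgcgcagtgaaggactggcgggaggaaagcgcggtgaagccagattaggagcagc
Fos (chr12:85473640-85473939, plus strand): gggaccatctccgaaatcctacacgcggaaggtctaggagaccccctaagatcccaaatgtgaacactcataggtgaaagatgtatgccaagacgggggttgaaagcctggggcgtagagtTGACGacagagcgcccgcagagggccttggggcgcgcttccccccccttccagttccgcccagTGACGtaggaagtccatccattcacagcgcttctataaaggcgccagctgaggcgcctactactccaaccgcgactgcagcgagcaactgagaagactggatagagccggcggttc

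In the Dusp1 promoter 2 of the 3 matches form the full palindromic CRE. The core was found in 26 of 44 promoters of immediate early genes (59.1%), against 20.8% of all promoters in the table. The serum response (CArG) box was found in 7 of the 44 (15.9%), against 1.63%. Each promoter of a gene was counted, so Egr2, with the box in several promoters, counts more than once. No box was found in the promoter stretches searched for Dusp1, Jun, Fos and Ppp1r15a. Sequence upstream of these stretches was not searched, for the box or for the CRE core, so sites there would be missed. The promoters of Jun, Cxcr4 and Ddit4 in the table held no CRE core, and the list of cAMP and CREB target genes had a median difference of 0.15 over 16 genes. Of these, 5 had both Il2ramut/mut arrays above the WT arrays and 0 below (13.7% and 18% of all genes), and 2 were higher and 0 lower at an unadjusted p under 0.05 (2.28% and 3.44%). No motif of the glucocorticoid receptor was searched.

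Genes of the IL-2 receptor and its pathway held no call. Il2ra itself had 6.38 and 6.48 on the WT arrays and 6.04 and 6.09 on the Il2ramut/mut arrays (-0.36 ± 0.10, adjusted p = 0.505), with no overlap, and in Treg cells its difference was 0.25. Il2rb, the signaling beta chain, differed by 0.25, Il4ra by 0.17, Il21r, the receptor of interleukin-21, by 0.11 and Il9r by -0.15, the last at or below background on 3 of the 4 arrays. Il7r, the survival receptor of naive cells, had 16.12 and 16.06 against 16.58 and 16.85 (0.63 ± 0.27, adjusted p = 0.691). Il6ra differed by -0.48 and Stat4, which transmits interleukin-12 signals, by 0.49. Of the measured genes next to Il2ra in the RefSeq order, Pfkfb3, Rbm17, Il15ra and Fbh1 ranged from -0.06 to 0.09 and the model gene Gm10851 was at -0.08, with signs that changed when single arrays were left out. Gm13260, at -0.30, was below background on all 4 arrays.

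Among 31 measured targets of IL-2 and STAT5 the median was 0.04, 7 had both Il2ramut/mut arrays above and 8 below the WT arrays, and 2 each were higher and lower at an unadjusted p under 0.05, beside shares of 13.7%, 18%, 2.28% and 3.44% over all genes. Pim2, a survival kinase that STAT5 induces, was the member of lowest p, at 8.54 and 8.21 on the WT arrays against 7.30 and 7.56 on the Il2ramut/mut arrays (-0.95 ± 0.15, adjusted p = 0.257), whereas in Treg cells its difference was -0.04. Ctla4, an inhibitory receptor, differed by 0.36 and Id2, an inhibitor of E proteins, by 0.34.

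No list of naive, identity or signaling genes stood far from the median over all genes. Of 40 lists, 34 had a median between -0.1 and 0.1, among them the naive and resting genes at -0.04, CD4 identity genes at -0.07, T cell receptor signaling genes at -0.02, ribosomal protein genes at -0.03 and oxidative phosphorylation genes at -0.04. Cd44, the adhesion receptor on which naive cells were gated as low, had 7.10 and 7.26 against 7.70 and 7.61 (0.48 ± 0.11, adjusted p = 0.471), and on Treg arrays it lay at 9.58 to 9.98. Of the 19 measured genes of activated and memory cells, 3 were higher and 3 lower at an unadjusted p under 0.05. The shares over all 30738 genes were 2.28% and 3.44%. The higher ones were Cd44, Cd69 and Id2, the lower ones Il2ra, S100a10 at -0.35 and the factor Maf at -0.37. The list had a median of -0.08. Treg genes had a median of -0.06, with Il2ra and Maf on the negative and Ctla4 on the positive side. Mki67, a proliferation antigen, had 5.48 and 5.42 against 5.91 and 6.24 (0.63 ± 0.27, adjusted p = 0.694), and the 43 proliferation genes had a median of 0.03.

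**Figure D5:**
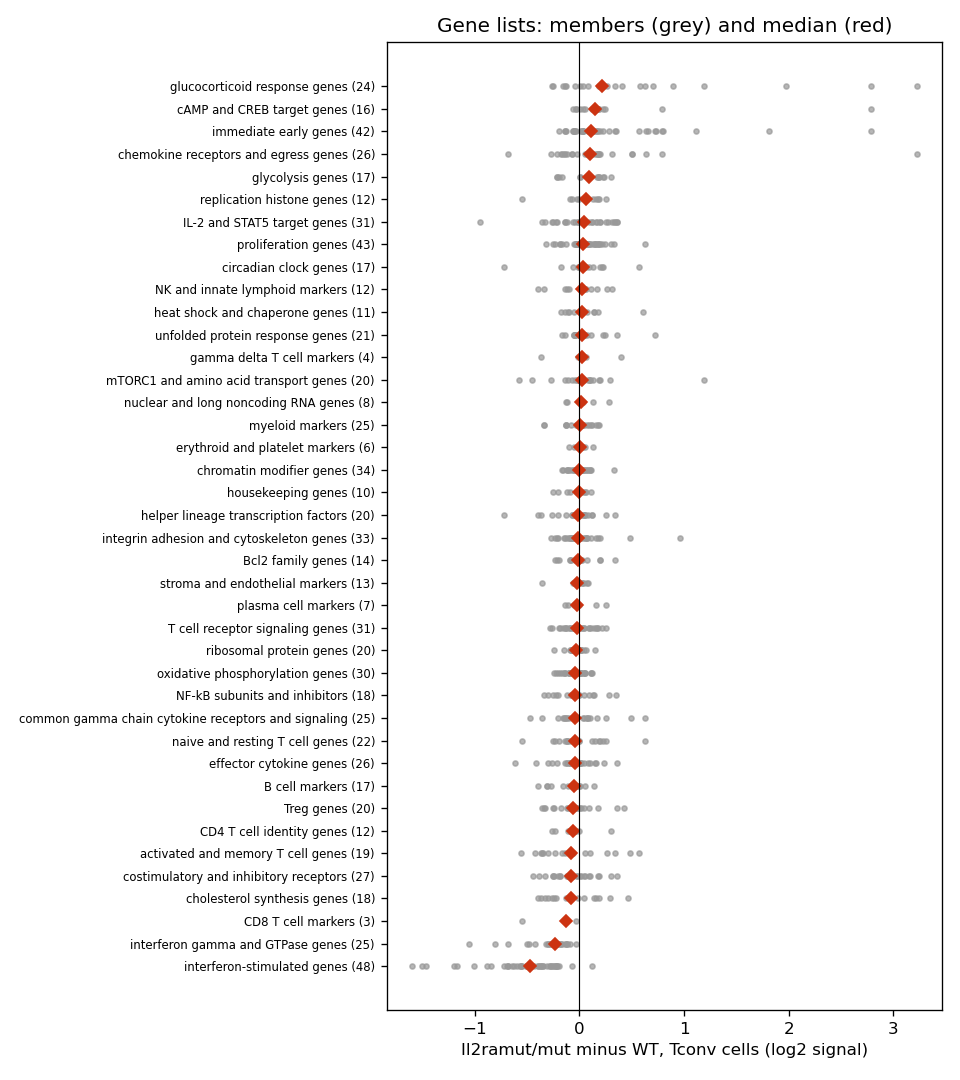
Difference between Il2ramut/mut and WT Tconv cells (log2 signal, x axis) of each member (grey points) and the list median (red diamonds) for 40 gene lists, with the number of measured genes in parentheses. The interferon-stimulated genes have the lowest median, -0.48, and the glucocorticoid response genes the highest, 0.22.

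Markers of other cells were compared in the same way. The 17 measured B cell markers had a median of -0.05 (14 negative), beside -0.01 over all 30738 genes. The 7 of them above background had one of -0.16, beside -0.04 over the 16422 genes above background. Of the 17, 0 were higher and 2 lower at an unadjusted p under 0.05, beside 2.28% and 3.44% of all 30738 genes. The 2 lower were H2-Eb1 at -0.40 and H2-Ab1 at -0.31, chains of class II antigen presentation. The 25 myeloid markers had a median of 0.01 and the 12 natural killer and innate lymphoid markers one of 0.03. Of the 3 CD8 T cell markers, Cd8b1 had 10.81 and 9.97 on the WT arrays against 9.83 and 9.84 on the Il2ramut/mut arrays, and its difference of -0.55 was -0.14 without WT array 1. The part of these values in the interferon-stimulated genes was not tested.

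The other named genes of lowest p on the higher side were Coro2a, an actin-binding coronin of the cytoskeleton list, with 6.42 and 6.49 on the WT arrays against 7.36 and 7.48 on the Il2ramut/mut arrays (0.96 ± 0.13, adjusted p = 0.157), the mitochondrial gene ND3 at 0.79, Atxn1, a transcriptional repressor, at 0.73, the DNA damage checkpoint gene Hus1 at 0.56 and the RNA helicase Ddx43 at 0.82. Mir5619 at 1.10, Muc3a at 0.90 and Glipr1 at 0.45 completed the 15 with Jun, Dusp1, Fos, Cxcr4, Ddit4, Btg1 and Ppp1r15a. Coro2a, Atxn1, Ddx43 and Muc3a were much brighter on Treg arrays, with Coro2a at 11.63 in WT Treg cells. In Treg cells Muc3a differed by 1.10 (limma adjusted p = 0.024), Ddx43 by 0.65, Atxn1 by 0.47 and Glipr1 by 0.43. Coro2a differed there by 0.01, ND3 by -0.13, Hus1 by -0.19 and Mir5619 by -0.28. On the lower side, Mir467e had 7.70 and 8.09 against 6.63 and 6.28 (-1.44 ± 0.18, adjusted p = 0.149), while a second Mir467e probe set differed by -0.32. Probe sets for other small or long noncoding RNAs stood beside it, with Snord90, a small nucleolar RNA, at -1.23, Mir5125 at -0.71, the antisense transcript Arhgap27os3 at -0.66, the Cajal body RNA Scarna2 at -0.56 and Mir7016 at -0.44. Such probe sets detect the precursor or host transcript as well as the small RNA. Oas1b at -0.83 and Ifit1bl2 at -0.98 are further interferon-induced genes with close copies in the genome, Oas1b being listed by RefSeq as a transcribed pseudogene, and Trgv6, a T cell receptor gamma segment, at -0.60 lay below background on both Il2ramut/mut arrays.

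Itm2b, a membrane protein of the BRICHOS family, had values of opposite sign in the cell types on its brighter probe set. Its Tconv signals were 7.09 and 7.06 against 6.60 and 6.41 (-0.57 ± 0.11, adjusted p = 0.387), while in Treg cells, where 0.373% of probe sets were called, the difference was 0.62 (adjusted p = 0.0242). A second Itm2b probe set above background had a Tconv difference of -0.08. The test of the difference between the cell types gave an adjusted p of 0.0786 over all probe sets. Genotype effects in Tconv and Treg cells differed past the threshold for 1 probe set (0.00152%), that of Gzmb, a granule protease. Cd80, the costimulatory ligand, and Car5b, a mitochondrial carbonic anhydrase, followed with an adjusted p of 0.0786 each, and their Tconv differences were 0.19 and -0.09 against 1.86 and 2.59 in Treg cells.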

How the data were processed

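Amplified, biotin-labelled RNA of sorted cells was measured on Affymetrix whole-transcript mouse arrays. The submitters' processing notes name Affymetrix Expression Console (1.4.1.46) and Transcriptome Analysis Console (3.1.0.5). The authors deposited normalized log2 signals, where base 2 is inferred from a maximum of 19.86. The summarisation of probes and the genome build were not given in the sources used here.

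Of 65956 transcript probe sets, 31292 named 1 gene, 1522 several and 33142 none, and 31290 had a RefSeq entry. The platform annotation can be old. A gene is represented by its single-gene probe set of highest mean over all arrays, and genes named only on shared probe sets (Foxp3, Junb) were not analysed here. Signals were never compared between probe sets. A fold against a group below background is a bound, from the higher of each dim array's background and its signal.

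Tests used limma (3.58.1, R 4.3.3), with 4 group means over 10 arrays (6 residual and 3.54 prior degrees of freedom, median standard error 0.143) and Benjamini-Hochberg adjustment. The fit was checked on simulated data. The methods' t-test is the equal-variance test that their one-way ANOVA becomes for a pair of groups. Differences are Il2ramut/mut minus WT, with standard errors of the fit.

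Genes were named by rule: called probe sets, the 15 higher and 15 lower named genes of lowest p above background on every array of a Tconv group, common gamma chain receptors and genes next to Il2ra, up to 4 members of lowest p in each list, and 10 genes of lowest interaction p. Further list members were named after their values were seen. Members, lists and tests were chosen with earlier results of these data known. Alternatives were another normalization, filters, variance models, a replicate block, the Tconv arrays alone and each array left out.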

Additional observations from a re-analysis of the deposited data

Results flagged for a closer look

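The genotype effect on Gzmb differed between cell types. The Tconv difference minus the Treg difference was -3.28 ± 0.18 on the log2 scale (SE, limma, adjusted p = 0.000681). In Tconv cells Gzmb lay at 4.80 and 5.17 on the WT arrays and at 4.91 and 4.77 on the Il2ramut/mut arrays, around background, while in Treg cells its means were 7.15 in WT and 10.29 in Il2ramut/mut cells. The value therefore describes Treg cells. Groups of 2 arrays were too small to be searched for single arrays that stand apart.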

How the results depend on the processing

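The arrays are few, so the counts of calls are the least stable values. In place of 2 calls in Tconv cells there were 3 with quantile normalization (2 higher, 1 lower) and 1 with the 4 Tconv arrays alone. There were 0 with arrays shifted to the same median, with the filter at 2 of 4 Tconv arrays above background and with probe sets naming 1 gene. The methods' t-test with Benjamini-Hochberg and the replicate number as a replicate block gave 0 as well. The labels do not say that numbers mark shared animals, so same-numbered arrays were not taken as paired. Same-numbered Tconv arrays deviated from their group means with a correlation of -0.13. With 2 arrays a group this value is the same for replicates 1 and 2 by construction, and it cannot show whether arrays were paired. A crossed pairing, chosen after seeing the data, also gave 0 calls. Leaving out each Treg array in turn gave 1 call without Il2ramut/mut Treg replicate 2 and 0 without any other Treg array. Leaving out a Tconv array leaves 1 array in its group, so calls from those fits do not measure the spread in that group. Jun, Dusp1 and Erdr1 crossed the threshold in such a fit, without WT Tconv replicate 1. The difference between cell types had 5 calls instead of 1 among probe sets naming 1 gene (Gzmb, Car5b, Itm2b, Cd80 and Lamc1), and 1 to 3 with an array left out: 3 without WT or Il2ramut/mut Tconv replicate 1 and 2 without Il2ramut/mut Treg replicate 1 or 2. The study's criterion was met by 23 instead of 69 probe sets among those naming 1 gene, by 532 with the unadjusted limma p in place of the t-test, and by 47 to 96 with an array left out. The split into higher and lower was 47 and 49 without Il2ramut/mut Tconv replicate 2, and 35 and 35 without WT Tconv replicate 2. The cause of these shifts was not tested.

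The median of the interferon-stimulated genes stayed between -0.54 and -0.39 over 14 alternatives, that of the interferon gamma and GTPase genes between -0.34 and -0.16, that of the glucocorticoid response genes between 0.16 and 0.31 and that of the immediate early genes between 0.06 and 0.17. Differences near 0 changed sign with an array left out: without WT Tconv replicate 2 for Il21r (from -0.077 to 0.287 over all arrays left out), Pfkfb3 (-0.11 to 0.296), Tgfbr3 (-0.050 to 0.429), Gzmb (-0.327 to 0.043), Car5b (-0.303 to 0.12) and Fbh1 (-0.0080 to 0.023), without Il2ramut/mut Tconv replicate 2 for Ly6c1 (-0.091 to 0.329) and Pfkfb3, without Il2ramut/mut Tconv replicate 1 for Il15ra (-0.077 to 0.0084), Gm10851 (-0.225 to 0.074), Rbm17 (-0.16 to 0.048) and Fbh1, and without WT Tconv replicate 1 for Rbm17. Fbh1 was also at -0.0072 with quantile normalization and -0.0044 with arrays shifted to the same median. Apart from those named here and in the report, no named gene in these alternatives changed direction or its side of the threshold.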
